A study of Mus musculus with 4 samples.

Results

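Maspin (Serpinb5), the plasminogen activators urokinase (Plau) and tissue-type activator (Plat), the urokinase receptor (Plaur) and the activator inhibitor Serpinb2 were followed across 4T1 cells, a mouse mammary carcinoma cell line, that did or did not carry CD44v8-10. CD44v8-10 is a splice form of the surface receptor CD44 with variant exons. The rule took every probe set, a group of probes read as 1 value, that the platform annotation pairs with only 1 of 6 listed symbols. It found 10 probe sets among the 45101 on the array, 4 for Serpinb5, 2 each for Plau and Plat, and 1 each for Serpinb2 and Plaur. These are 5 of the 18193 genes with a probe set of their own; Serpine2, the sixth symbol, was not analysed here. The genes were chosen with the difference between positive and negative cells in view, so their own differences are given as a description, with no test.

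Total RNA was hybridised to 1-colour Affymetrix arrays, 2 from CD44v8-10-positive and 2 from CD44v8-10-negative 4T1 cells. Both groups were the same line, grown in RPMI medium with bovine serum at normal oxygen and picked by hand under a dissecting microscope, with no added agent or altered allele named in the labels. How the populations were told apart by CD44v8-10 is not given in the sources used here. Nothing says that the arrays of a group came from separate cultures, so the spread between them may be technical.

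Plasmin is the broad protease of the plasminogen system: urokinase and tissue-type activator cut inactive plasminogen into plasmin, which dissolves fibrin, breaks down matrix proteins and releases latent proteases and growth factors. The urokinase receptor holds urokinase at the cell surface, and serpins such as Serpinb2 (plasminogen activator inhibitor type 2) trap the activators by offering a bait loop. Maspin is a serpin of the same clade as Serpinb2 that does not undergo the inhibitory change of shape; it is made by mammary myoepithelial and other epithelial cells and has been studied as a suppressor of breast tumour invasion.

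The promoters of Serpinb5, Serpinb2 and Plaur are shown as a description of the genes followed, whatever their difference between the groups. Each sequence is 300 bases from RefSeq (GRCm38.p6), 250 before and 50 after the start site, on the plus strand, and the table held 3 of the 5 genes; Plau and Plat were not matched. Capitals mark matches, on either strand, to TGANTCA (the core pattern of AP-1), CAGGTG (an E-box) or TATAAA.
Serpinb5, chr1:106860925-106861224: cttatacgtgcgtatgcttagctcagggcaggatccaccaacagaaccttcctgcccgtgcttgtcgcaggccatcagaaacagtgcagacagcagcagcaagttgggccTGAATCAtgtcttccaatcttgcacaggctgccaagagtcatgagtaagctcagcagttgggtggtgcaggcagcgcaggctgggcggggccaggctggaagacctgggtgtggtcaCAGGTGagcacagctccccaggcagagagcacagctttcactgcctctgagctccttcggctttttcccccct
Serpinb2, chr1:107511173-107511472: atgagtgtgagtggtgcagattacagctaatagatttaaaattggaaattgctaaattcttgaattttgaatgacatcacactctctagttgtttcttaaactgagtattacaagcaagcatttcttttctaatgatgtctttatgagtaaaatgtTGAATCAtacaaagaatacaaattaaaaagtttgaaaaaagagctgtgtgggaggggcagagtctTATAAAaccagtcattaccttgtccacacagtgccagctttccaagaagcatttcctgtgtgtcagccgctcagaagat
Plaur, chr7:24462233-24462532: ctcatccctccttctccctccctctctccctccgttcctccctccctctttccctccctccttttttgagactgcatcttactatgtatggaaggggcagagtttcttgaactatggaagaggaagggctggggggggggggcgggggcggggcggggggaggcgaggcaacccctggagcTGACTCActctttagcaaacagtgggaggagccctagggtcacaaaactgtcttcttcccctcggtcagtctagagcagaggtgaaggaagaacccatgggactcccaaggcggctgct
TGANTCA occurred once in each of the 3, with its first base at -140 from the start in Serpinb5, -94 in Serpinb2 and -69 in Plaur, and 7.81% of the 32851 promoters in the table hold it. The match read TGAATCA in Serpinb5 and Serpinb2 and TGACTCA in Plaur. CAGGTG stood at -23 in Serpinb5 alone of the 3 (20.2% of all promoters), and TATAAA at -29 in Serpinb2 alone (13.6% of all promoters). No matches overlapped. Serpinb2 has a second annotated start whose window overlaps this one and holds the same matches. G and C made up 58.3% of the Serpinb5 window, 35.3% of that of Serpinb2 and 59.3% of that of Plaur. These are matches of letters and do not show that a factor binds.

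The arrays were not equally bright, with trimmed mean intensities of 237 and 220 in positive replicates 1 and 2 and of 196 and 345 in negative replicates 1 and 2. Signals below are therefore quantile normalized, and differences are on the log2(signal + 16) scale, which understates those of dim genes. With no scaling the median difference of all genes moved from 0.03 to -0.15. After the filter 11956 genes were compared, and the limma fit called 9 higher in positive cells and 0 lower (Benjamini-Hochberg adjusted p under 0.05), or 0.0753% in all; at an unadjusted p under 0.05 there were 321 higher (2.68%) and 211 lower (1.76%). Differences were above 0 in 54.3% of genes. With arrays centred on their median it called 20 higher and 5 lower. All 8 epithelial markers were above the filter, led by the keratin Krt18 at 10561 to 12998, and 0 of 6 endothelial markers were.

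Serpinb5 had the largest difference of the genes followed. Its brightest probe set, 1421752_a_at, read 281 and 203 in positive replicates 1 and 2 and 52.3 and 58.2 in negative replicates 1 and 2. Both positive arrays lay far above both negative arrays, whose own values were close together. The group means were 242 ± 55.1 and 55.3 ± 4.17 (SD, n = 2 each), a ratio of 4.37. On the log2 scale the difference was 1.84 ± 0.26 (SE, 95% interval 1.27 to 2.41), or 3.58-fold.

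As deposited, with no scaling, the same probe set read 256 and 177 against 39.3 and 83.1. The negative arrays stood further apart there, in the order of their overall brightness, and still below the positive arrays. Ranked within its own array, which needs no scaling, it stood at the 77.2 and 72.9 percentile of all probe sets in positive cells and at the 54.7 and 56.2 percentile in negative cells. Quantile normalization keeps the ranks within an array, so these percentiles order the arrays as the normalized signals do and add no separate support.

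Serpinb5 was also 1 of the 9 genes past the threshold of the fit, and the only called gene among the 5 compared, beside 0.0753% of all genes; since the gene was chosen on this contrast, nothing is read from that count. It ranked 10th of 11956 genes by difference. It was not past the threshold without positive replicate 1, where the difference was 1.61, or without negative replicate 1, where it was 1.80. The call was also lost with no scaling (1.63) and with arrays scaled to 1 trimmed mean (1.81). So it was with no filter, with every probe set on its own and without the intensity trend, each with 1.84, and for the mean over its probe sets, at 1.55.

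The other 3 Serpinb5 probe sets were dimmer. Probe set 1424623_at read 94.3 and 59.3 in positive and 0.70 and 27.1 in negative cells, with a log2 difference of 1.77 ± 0.47 (SE). Its negative arrays were far apart, and replicate 1 lay near the bottom of the scale, so the difference was 3.46 with a pseudocount of 1 and 0.86 with 64. Probe set 1438856_x_at read 56.1 and 37.8 against 3.18 and 9.60, a difference of 1.49 ± 0.41. Both negative arrays were under the filter level of 19.4, so its size is not exact either: it was 2.82 with a pseudocount of 1 and 0.65 with 64.

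Probe set 1441941_x_at read 93.6 and 30.1 against 12.9 and 22.1, a difference of 1.10 ± 0.45. Here positive replicate 2 lay only a little above negative replicate 2, and the difference ran from 0.48 without positive replicate 1 to 1.79 without positive replicate 2. Identifiers ending in _x_at mark probe sets with probes that may also match other sequences. In all 4 probe sets both positive arrays were above both negative arrays, and positive replicate 1 was the highest of the 4 arrays in each. The 4 probe sets read the same RNA samples and are not replicates.

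**Figure D1:**
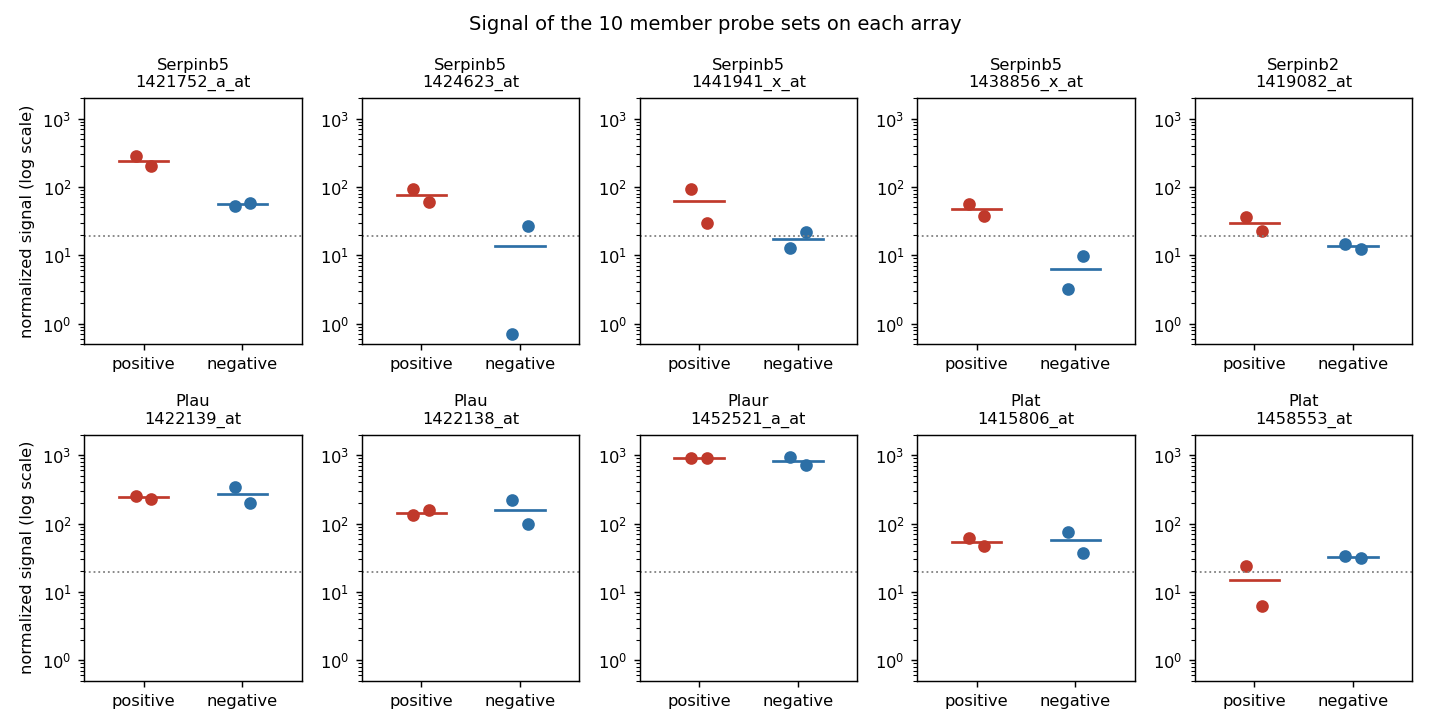
Normalized signal (log axis) of each of the 10 probe sets on the 2 positive (red) and 2 negative (blue) arrays, with group means as bars and the filter level of 19.4 as a dotted line. The 4 Serpinb5 panels and the Serpinb2 panel have both positive arrays above both negative arrays, the Plau and Plaur panels and the brighter Plat panel overlap, and the dimmer Plat panel, 1458553_at, is separated the other way.

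Serpinb2, whose product inhibits urokinase and is also abundant inside stressed epithelial cells and macrophages, was dim. It read 36.3 and 22.4 in positive and 14.6 and 12.5 in negative cells. The positive arrays were both higher, but the negative arrays lay under the filter level of 19.4, so the probe set passed the filter through the group where it was high and its fold is no exact size. The group means were 29.4 ± 9.83 and 13.6 ± 1.45 (SD, n = 2 each). The log2 difference was 0.60 ± 0.42 (SE, 95% interval -0.31 to 1.51), and 1.03 with a pseudocount of 1 or 0.26 with 64.

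As deposited Serpinb2 read 31.5 and 24.6 against 10.9 and 15.6, again with both positive arrays higher. Within its array it stood at the 49.1 and 40.5 percentile in positive and at the 32.6 and 30.1 percentile in negative cells. Without positive replicate 2 the difference was 0.84. Differences were above 0 for 3 of the 5 genes, or 2 with no scaling, beside the 54.3% given for all genes. By the brightest probe set of each gene, Serpinb5 and Serpinb2 were the 2 genes of 5 with separated groups, both higher in positive cells. Of all genes 32.3% were separated (18.5% of all genes higher and 13.8% of all genes lower). Since Serpinb2 passed the filter through the group where it was high, nothing is read from these counts.

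Urokinase mRNA overlapped between the groups. The brighter Plau probe set, 1422139_at, read 253 and 229 in positive and 347 and 201 in negative cells. The negative arrays lay on either side of the positive ones. The means were 241 ± 16.7 and 274 ± 103 (SD, n = 2 each), and the log2 difference was -0.13 ± 0.27 (SE), with a 95% interval of -0.71 to 0.45.

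The second Plau probe set, 1422138_at, read 133 and 157 against 220 and 98.7, again with the positive arrays between the negative ones. Its difference was -0.04 ± 0.33 (SE). For the brighter probe set the sign turned on which negative array was kept: the difference was 0.24 without negative replicate 1 and -0.51 without negative replicate 2. As deposited both negative arrays were above both positive arrays for each probe set, at 266 and 296 against 229 and 202 for the brighter, a difference of -0.36 with no scaling, so whether the groups overlapped depended on the scaling between arrays.

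Plat, the activator best known from blood vessels and neurons, was dim and its probe sets differed. The brighter, 1415806_at, read 60.6 and 47.3 in positive and 76.4 and 36.9 in negative cells. As for Plau, the negative arrays held both the highest and the lowest value. The difference was -0.01 ± 0.35 (SE, 95% interval -0.77 to 0.76); it was 0.40 without negative replicate 1, -0.38 without negative replicate 2 and 0.05 with one trimmed mean.

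The dimmer Plat probe set, 1458553_at, read 24.1 and 6.25 against 33.5 and 31.2. Both positive arrays were below both negative arrays, with positive replicate 2 well under the filter level. Its difference was -0.70 ± 0.43 (SE), which was -1.14 without positive replicate 1 and -0.28 without positive replicate 2. Taken as the mean of both probe sets Plat had -0.35.

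The urokinase receptor Plaur stood at the 88.5 to 90.6 percentile of all probe sets within each array. Its probe set 1452521_a_at read 914 and 925 in positive and 930 and 728 in negative cells. The positive arrays were nearly equal and lay between the negative ones. The means were 920 ± 7.93 and 829 ± 142 (SD, n = 2 each), and the difference was 0.16 ± 0.21 (SE, 95% interval -0.29 to 0.61). The sign turned with no scaling (-0.04) and without negative replicate 2 (-0.02), and as deposited the arrays read 871 and 804 against 729 and 1019.

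In both Plau probe sets, the brighter Plat probe set and Plaur, negative replicate 1 was thus the highest and negative replicate 2 the lowest of the 4 normalized arrays. In the deposited values of the brighter Plau probe set and of Plaur, negative replicate 2 was the highest. The intervals of these 3 genes reached from -0.77 to 0.76 on the log2 scale, so a difference of 1.5-fold in either direction was within the interval for Plat, and in the direction of higher Plaur or lower Plau as well.

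**Figure D2:**
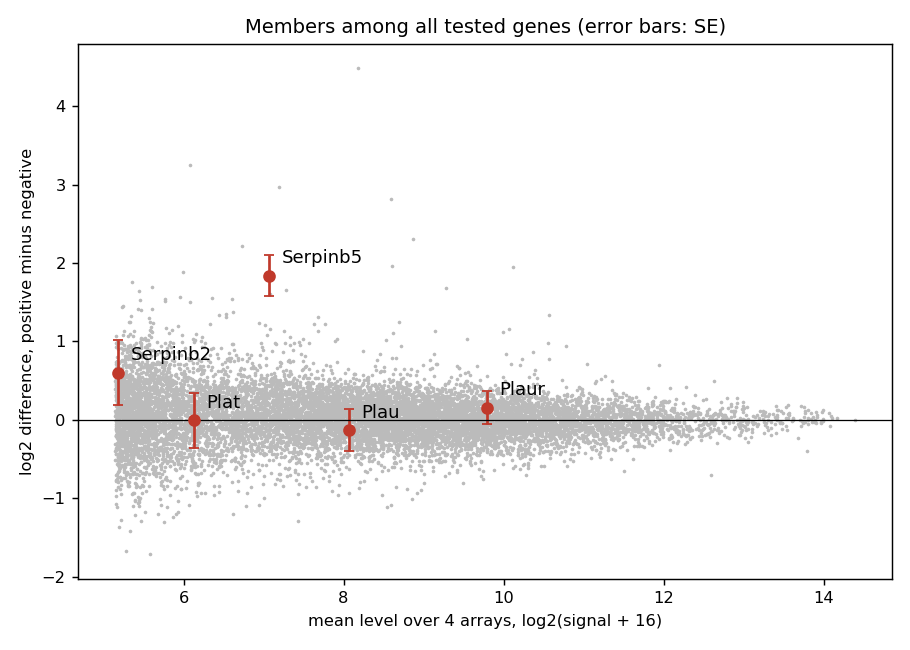
Log2 difference (positive minus negative) against mean level over the 4 arrays, log2(signal + 16), for the 11956 genes compared (grey), with the 5 genes followed in red and SE as bars. Serpinb5, at 1.84, stands above nearly all genes of its level, Serpinb2, at 0.60, lies at the dim edge, and Plau, Plaur and Plat lie near 0.

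The quartiles of all differences were -0.15 and 0.20, and Plau, Plaur and Plat lay between them. Serpinb5 stood at the 99.9 percentile. No percentile is given for Serpinb2, whose difference has no exact size.

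The genes most like Serpinb5 over the 4 arrays, by the Euclidean distance between log2 values centred on each gene's mean, were Ap1m2 (distance 0.34), Mal (0.44), Il1f10 (0.45), Cldn3 (0.48) and Nox4 (0.50). Cldn3, a tight junction claudin, read 2114 and 2221 in positive and 609 and 490 in negative cells. Ap1m2, an epithelial clathrin adaptor subunit, read 92.3 and 55.3 against 13.9 and 8.58, so that, like Serpinb5, positive replicate 1 was the higher of its pair. The negative arrays of Ap1m2 and of Il1f10 (11.95 and 7.80) lay under the filter level of 19.4. Both genes thus passed the filter through the group where they were high, and their distances have no exact size. Mal, a proteolipid of apical transport, read 123 and 126 against 29.2 and 34.7. Of Plaur, Plat and Plau, Plaur came nearest to Serpinb5, at distance 1.74 and rank 3141 of 11955, and Plau was farthest, at 2.07 and rank 9369. No distance is given for Serpinb2, whose difference has no exact size. With only 4 arrays such closeness reflects mainly the size of the difference between the groups.

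The rest of the plasminogen system was described through a list of 33 genes, of which 30 had a probe set of their own and 20 were above the filter. None was called by limma in either direction. At an unadjusted p under 0.05 F3 and St14 were higher and 0 lower, where 2.68% and 1.76% of all genes were. Differences were above 0 for 12 genes and below for 8, where 54.3% of all genes were above 0. Their median was 0.05 beside 0.03 for all genes. With no scaling 9 were above 0 and 11 below, and the median was -0.01 beside -0.15. Without negative replicate 1 or 2 the median was -0.04 or -0.01.

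F3, tissue factor, the starter of clotting, read 189 and 179 in positive and 110 and 124 in negative cells, a difference of 0.59 ± 0.24 (SE, limma adjusted p 0.985). St14, the membrane protease matriptase, which can activate urokinase, had 0.51 ± 0.23 (limma adjusted p 0.985) and Prss8, the membrane-anchored protease prostasin, 0.33. Both positive arrays were above both negative arrays in these 3 and in Anxa2, described below. The groups were separated the other way for F2r, a thrombin receptor (-0.30), for the integrin chain Itgav (-0.24) and for the sorting receptor Sorl1 (-0.23). Thus 4 of the 20 genes were separated higher and 3 lower, where 18.5% and 13.8% of all genes were. Nothing is read from these counts.

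The brightest listed genes were Anxa2 and S100a10, which together form a cell-surface docking complex for plasminogen and its tissue-type activator, and the integrin chain Itgb1. Anxa2 read 10984 and 11118 against 10820 and 10778, a difference of 0.03. S100a10 had 0.07 and Itgb1 0.27, with overlapping arrays; S100a10 was -0.04 at its lowest and turned sign without positive replicate 1 or negative replicate 2. Chosen after their values were seen, the receptors that clear activator-inhibitor complexes from the surface, Vldlr and Lrp1, had -0.69 ± 0.33 and -0.50 ± 0.28 (SE), also with overlapping arrays, while Lrp2, of the same receptor family, was dim and had 0.03 ± 0.42.

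Of 25 other clade B serpins, 16 had a probe set and 5 were above the filter. None was called by limma, and 0 had an unadjusted p under 0.05. Serpinb9b had the highest difference with separated groups (0.36) and Serpinb6b the lowest (-0.37). These were the only genes separated, 1 higher and 1 lower of the 5, where 18.5% and 13.8% of all genes were. Serpinb6a, the brightest, read 5464 and 5930 against 5764 and 4877, a difference of 0.10 that was -0.02 with no scaling, and Serpinb9, an inhibitor of granzyme B, had 0.12, which was -0.08 with no scaling and -0.0035 with arrays centred on their median.

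Of 28 serpins of other clades 17 had a probe set and 4 were above the filter, again with 0 called by limma. At an unadjusted p under 0.05, where 2.68% of all genes were higher, 1 gene was higher. That gene, Serpina10, an inhibitor of clotting factors, read 39.0 and 34.1 against 15.8 and 8.93, a difference of 0.90 ± 0.40 (SE, limma adjusted p 0.985). Its negative arrays were under the filter level, so it passed the filter through the group where it was high. Nothing is therefore read from that count. The difference has no exact size and ran from 0.40 to 1.54 over the alternatives in which its probe set was tested. Serpinh1, the collagen chaperone HSP47, had -0.15 and turned sign without positive replicate 1 or negative replicate 2, with 0.10 at its highest. Serpinc1, antithrombin, had -0.11 and Serpind1, heparin cofactor 2, -0.24, both with overlapping arrays.

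A list of 23 matrix proteins, latent proteases and latent growth factors that plasmin or urokinase can cleave or activate had 19 genes above the filter. Lama3 alone was called by limma, as higher, and at an unadjusted p under 0.05 5 genes were higher and 2 lower, where 2.68% and 1.76% of all genes were. The list had 14 genes above 0 and 5 below, with a median of 0.29 beside 0.03 for all genes. The median was 0.08 beside -0.15 with no scaling, 0.12 without negative replicate 1 and 0.19 without positive replicate 2. The arrays were separated in 9 genes higher and 3 lower in positive cells, where 18.5% and 13.8% of all genes were. The list was chosen with earlier results of these data known, so nothing is read from these counts or from the median.

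Lama3, a chain of the basement membrane laminin of epithelia, read 257 and 265 in positive and 84.6 and 60.3 in negative cells, a difference of 1.66 ± 0.25 (SE, limma adjusted p 0.0302, higher in both positive arrays). The call was lost whichever array was left out, with limma adjusted p of 0.129 and 0.272 without positive replicate 1 or 2 and of 0.0621 and 0.112 without negative replicate 1 or 2, and ran from 0.000676 to 1 over all alternatives. Mmp10, stromelysin 2, read 181 and 141 against 70.8 and 76.1, a difference of 0.97 ± 0.26 (limma adjusted p 0.608). The matrix glycoprotein Tnc had 0.97 ± 0.28 (limma adjusted p 0.795). The 2 abundant plasmin substrates Fn1, fibronectin, and Thbs1, thrombospondin 1, had 0.70 ± 0.17 and 0.71 ± 0.18. Neither was called (limma adjusted p 0.420 and 0.459).

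Lowest among the targets with separated groups was Bdnf, a growth factor whose precursor plasmin can cut, with 116 and 69.1 in positive and 176 and 167 in negative cells, a difference of -0.82 ± 0.27 (SE, limma adjusted p 0.980). Mmp3, stromelysin 1, had -0.58 ± 0.26 and the laminin chain Lamb1 -0.22. The stromelysins Mmp10 and Mmp3 thus had differences of opposite sign, neither of them called.

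**Figure D3:**
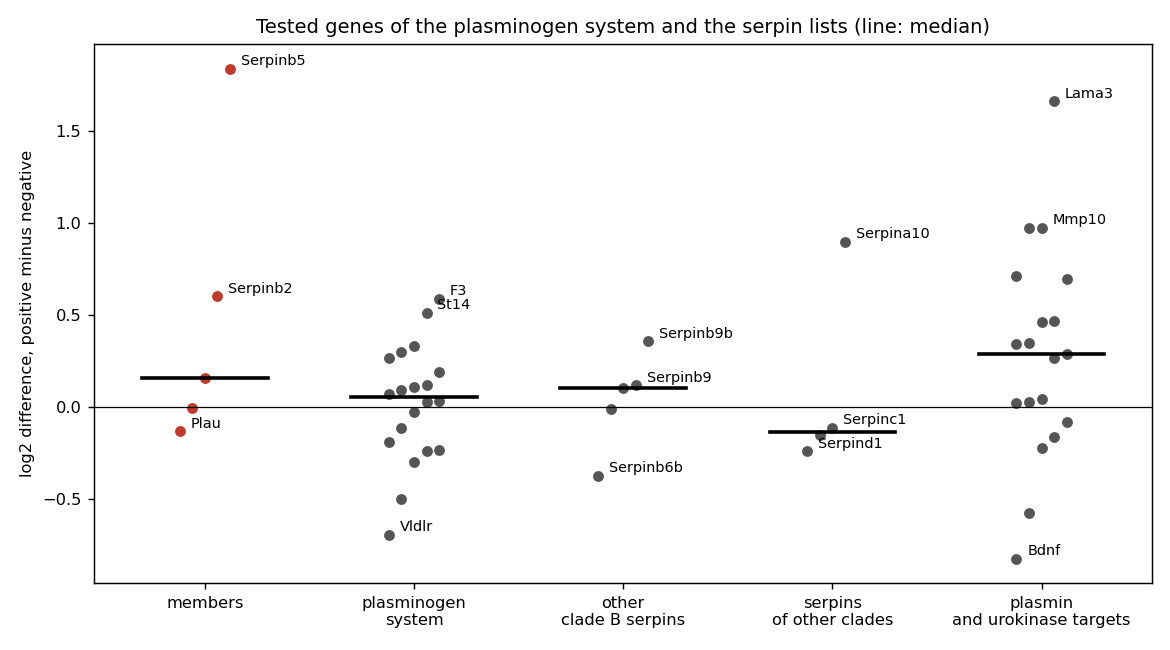
Log2 difference (positive minus negative) of each tested gene in the 5 genes followed (red, labelled members) and in the 4 lists described, with the median of each as a line and the 2 highest and the lowest gene named. Serpinb5, at 1.84, and Lama3, at 1.66, stand apart from the others, and the plasminogen system lies between -0.69 and 0.59.

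Other cell types, which can make several but not all of these genes, were followed by their markers. Of 12 macrophage markers 6 were above the filter and 0 were called by limma. Their summed signal was 552 and 716 in positive and 477 and 439 in negative cells. The brightest, Cd14, read 226 and 259 against 188 and 180, and the leukocyte marker Ptprc stayed under the filter, at 1.55 and 12.7 against 0.83 and 2.05. Macrophages can express Serpinb2, Plau and Plaur, and the part of such cells in the values of these genes was not tested.

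Of 8 fibroblast markers 3 were above the filter. The summed signal of all 8 was 171 and 157 in positive and 202 and 194 in negative cells. The brightest, Pdgfra, read 47.0 and 33.6 against 108 and 76.6, a difference of -0.94 (limma adjusted p 0.980). The other 2 above the filter had differences above 0. Pdpn, at 28.0 and 31.1 against 17.0 and 21.8, had 0.37, and Col1a2, with overlapping arrays, had 0.04. The 6 endothelial markers, all under the filter, summed to 93.9 and 94.8 against 44.9 and 48.3, with Cdh5 the brightest at 50.0 and 18.2 against 2.88 and 7.15. Different markers led the sums of the positive arrays: Kdr read 7.9 and 34.1 against 9.2 and 6.25. Pecam1 read 6.9 and 3.95 against 5.4 and 5.18, with overlapping arrays. The part of fibroblasts and endothelial cells in the values of Plat and Serpinb5 was not tested. The lowest deposited value on each array was 0.1, so no marker could read 0, and 2 macrophage markers had a lowest normalized signal under 1.

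The 8 epithelial markers had differences above 0, with a median of 0.53, where 54.3% of all genes were above 0. But without negative replicate 1 only 5 were above 0 and 3 below, and without positive replicate 2 the median of the 7 left was 0.35. Krt5 read 22.7 and 57.4 against 6.05 and 18.4, so it passed the filter through the group where it was high. Cdh1 (0.28), Krt18 (0.08) and Krt8 (0.06) had overlapping arrays. Their summed signal was 34290 and 37748 in positive and 27083 and 32954 in negative cells. The basal keratin Krt14 (1.97, from an _x_at probe set) and the adhesion molecule Epcam (1.34) were called by limma, where 0.0753% of all genes were. Krt5 (0.95), Krt19 (0.57) and Krt7 (0.49) were not called, with limma adjusted p of 0.985, 0.985 and 0.919. Basal mammary epithelium also makes Serpinb5. In bulk RNA, fewer cells of a type and less RNA per cell cannot be told apart, and the part of basal or epithelial cells in the Serpinb5 difference was not tested.

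**Figure D4:**
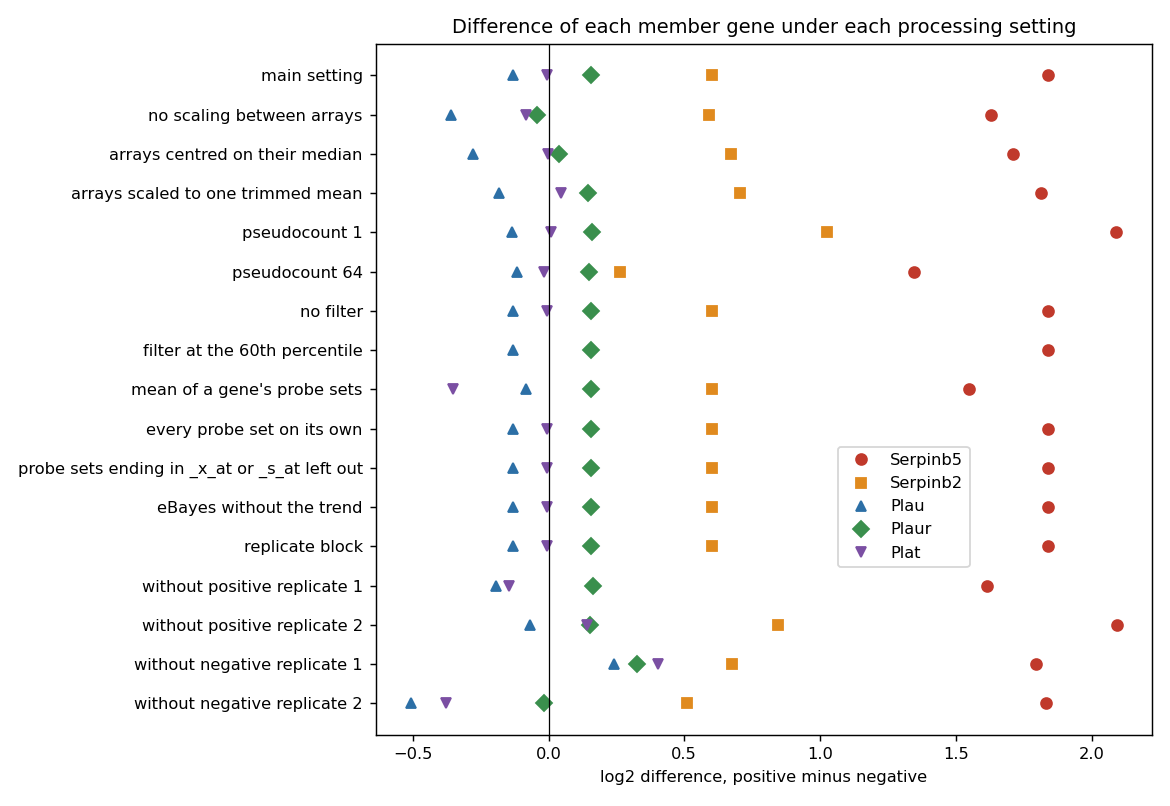
Log2 difference (positive minus negative) of the 5 genes by their tested probe set under the main setting and each of the 16 alternatives, 1 row a setting; a missing point means that the gene was under the filter. Serpinb5 lies between 1.35 and 2.09 and Serpinb2 between 0.26 and 1.03 in all rows where they were measured, while Plau, Plaur and Plat fall on both sides of 0.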

How the data were processed

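The authors deposited intensities on a linear scale, between 0.1 and 22695.6 over 45101 probe sets on 4 arrays. GCOS, Affymetrix software for its arrays, is named in the submitters' processing notes with no role; the authors' background correction, summary method and scaling are not stated in the sources used. Arrays were quantile normalized because their 2% trimmed means ran from 196 to 345. Values were transformed as log2(value + 16). Array controls were removed, probe sets with a mean below the 40th percentile (a normalized signal of 19.4) were left out, and the brightest probe set stood for each gene, which gave 11956 genes. Groups were compared with limma 3.58.1 under R 4.3.3 (intensity trend, two-sided, Benjamini-Hochberg, threshold 0.05), tested on simulated data. Gene names came from GEO's platform annotation, and only probe sets paired with a single symbol were used.

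The members and the gene lists were chosen with earlier results of these data known. Named from each list were genes past the threshold, the 3 highest and 3 lowest with separated groups, and the 3 brightest, and from each marker list any gene past the threshold and the brightest marker. Likeness to Serpinb5 was the Euclidean distance between log2 values centred on each gene's mean over 4 arrays. Alternatives were other scalings, pseudocounts, filters and probe set rules, eBayes without the trend, a block for the replicate number, and each array left out in turn.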

Additional observations from a re-analysis of the deposited data

How the results depend on the processing

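All 16 alternatives were planned. The count of 9 genes past the limma threshold became 3 with no scaling between arrays, 25 (20 higher and 5 lower) with arrays centred on their median, 3 with no filter and 2 without the intensity trend, and ran from 6 to 16 when each array was left out. Among the plasminogen system, the other serpins and the plasmin targets, the count of 1 became 0 with no scaling, with one trimmed mean, with no filter, with every probe set on its own and without the trend, and was 0 whichever array was left out. With the replicate number as a block 18 genes passed (15 higher and 3 lower), with 1 gene of those lists. The labels give same-numbered arrays nothing in common but the number, and the deviations of same-numbered arrays correlated at 0.12 over 11956 genes with only 2 arrays a group, so the numbers were not taken as pairs.

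The Serpinb5 difference of 1.84 was 2.09 with a pseudocount of 1, 1.35 with 64 and 1.55 as the mean of its probe sets, and ran from 1.61 to 2.09 when each array was left out; it was above 0 in 16 of 16 alternatives and past the threshold in 8. Serpinb2 was above 0 in the 14 that could be computed, Plau below 0 in 15 of 16, Plaur above 0 in 14 of 16 and Plat below 0 in 11 of 15. Serpinb2 fell under the filter at the 60th percentile and without positive replicate 1, and Plat at the 60th percentile. With 1 array left in a group, that array was taken to vary like the others. The 2 arrays a group limit the precision, and no detection calls were used.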

Other observations

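Serpinb5 and Serpinb2 lie in the same cluster of clade B serpin genes, and this position was looked up after the values were seen. In RefSeq order on chromosome 1 (GRCm38.p6) 8 protein-coding genes stand between them, all of them clade B serpins. Of these, 4 had probe sets with a single symbol, namely Serpinb12, Serpinb3a, Serpinb11 and Serpinb7. None of their 5 probe sets was above the filter, and their highest normalized signal on any array was 23.9, for Serpinb11 in negative replicate 2. The 4 genes on the other side of Serpinb5 were all tested, and their log2 differences were -0.07 for Vps4b, -0.23 for Kdsr, -0.40 for Bcl2 and -0.14 for Phlpp1.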
